A study of Mus musculus with 9 samples.

Results

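*Opalin*, *Ugt8a*, *Aspa*, *Cnp*, *Mbp*, *Mog*, *Mag*, *Mobp* and *Mal* are genes that mature oligodendrocytes use to make and keep myelin, and their transcripts were followed in mouse brain after intracerebral lipopolysaccharide (LPS). These 9 genes of the 17097 named on the array were chosen by symbol. Each was represented by the probe set annotated to that gene alone with the highest mean over all arrays. Brain tissue came from C57Bl/6J male mice, 10 to 12 weeks old, that received a stereotaxic injection of LPS or of phosphate-buffered saline (PBS) into the striatum. The 3 groups, with 3 arrays in each, had received PBS with a recovery of 4 d, LPS with a recovery of 1 d, or LPS with one of 4 d, and every array held RNA pooled from 3 mice. All mice were perfused with saline, and a block of 4 mm around the injection site was taken from the injected hemisphere, so every array measured grey and white matter and any invading leukocytes together. PBS tissue was analysed here only at 4 d, so at 1 d the effect of LPS and that of time since the injection cannot be told apart, and both LPS groups were compared with the same PBS arrays.

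Oligodendrocytes wrap axons with a compacted, lipid-rich membrane that allows fast conduction and feeds the axon. Compact myelin is held together mainly by myelin basic protein and is rich in galactosylceramide, whereas adhesion molecules such as MAG face the axon and MOG lies on the outer surface. New oligodendrocytes arise from precursors through a committed stage, and SOX10, MYRF and OLIG factors switch on the myelin genes. LPS, a bacterial cell wall product, acts on Toll-like receptor 4 of microglia and other cells and gives an acute inflammation of the brain.

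Values are log2 expression values, in which a difference of 1 is a doubling, and levels on the linear scale are in arbitrary array units. A gene was said to have fallen or risen where the adjusted p of limma was under 0.05 and the fold was at least 1.5. Counts at an unadjusted p under 0.05 are given below beside some counts of calls. They come without the share of all probe sets at that cut and were not read as results. Since levels of different probe sets are not comparable, each gene was compared only with itself. Sums of linear levels over a marker list, given below, weigh the brightest probe sets most and were compared only between arrays. At 1 d after LPS, *Opalin*, *Ugt8a*, *Aspa* and *Cnp* fell, to between 45.0% and 64.6% of PBS, and at 4 d none of the 9 genes differed from PBS by the test. Of all 45037 probe sets, 0.44% were lower and 2.36% were higher at 1 d, and 0.344% were lower and 2.58% higher at 4 d. From 1 d to 4 d these 4 genes rose, as did 1.11% of all probe sets, while 0.85% fell. In whole tissue, fewer cells of a type and less RNA per cell cannot be told apart.

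The sequences before the annotated starts of the 4 genes that fell, and of *Mobp*, which did not pass the test, are shown. Each is the 250 bases before the start in RefSeq (build GRCm38.p6), 5′ to 3′ on the strand of the gene, and capitals mark the core letters bound by SOX factors (ACAAAG or ACAATG, on either strand). They read as follows.
Opalin, chr19:41077114-41077363, minus strand: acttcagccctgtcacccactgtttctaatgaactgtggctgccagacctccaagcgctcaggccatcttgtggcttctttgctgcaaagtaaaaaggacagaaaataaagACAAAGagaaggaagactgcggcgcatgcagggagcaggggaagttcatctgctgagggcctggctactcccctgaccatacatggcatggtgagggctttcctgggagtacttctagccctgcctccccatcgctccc
Ugt8a, chr3:125938653-125938902, minus strand: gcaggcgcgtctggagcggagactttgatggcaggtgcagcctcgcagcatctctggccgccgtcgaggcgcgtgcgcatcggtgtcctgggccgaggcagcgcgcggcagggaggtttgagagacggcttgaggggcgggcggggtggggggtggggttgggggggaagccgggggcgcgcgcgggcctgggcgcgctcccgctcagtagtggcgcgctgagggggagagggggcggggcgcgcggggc
Aspa, chr11:73324638-73324887, minus strand: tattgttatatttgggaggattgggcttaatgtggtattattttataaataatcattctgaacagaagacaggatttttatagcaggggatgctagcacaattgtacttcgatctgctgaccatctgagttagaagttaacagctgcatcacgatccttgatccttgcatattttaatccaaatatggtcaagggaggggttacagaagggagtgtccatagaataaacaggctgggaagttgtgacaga
Cnp, chr11:100574689-100574938, plus strand: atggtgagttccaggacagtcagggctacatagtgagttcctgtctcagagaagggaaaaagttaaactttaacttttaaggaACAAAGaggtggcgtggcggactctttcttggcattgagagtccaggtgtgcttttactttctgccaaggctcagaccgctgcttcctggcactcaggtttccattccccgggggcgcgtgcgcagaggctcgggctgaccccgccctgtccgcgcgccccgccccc
Mobp, chr9:120149492-120149741, plus strand: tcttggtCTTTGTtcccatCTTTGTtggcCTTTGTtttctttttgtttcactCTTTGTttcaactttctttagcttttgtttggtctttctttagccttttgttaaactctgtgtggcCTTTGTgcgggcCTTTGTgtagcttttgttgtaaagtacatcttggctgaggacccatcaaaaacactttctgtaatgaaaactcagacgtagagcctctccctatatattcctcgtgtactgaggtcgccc

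RefSeq promoters were matched for 8 of the 9 genes (10 promoters, 3 of them for *Mag*), and *Mbp* was not searched. SOX core letters stood before *Opalin*, *Cnp*, *Mag* and *Mobp*, that is 4 of the 8 genes. Counted by promoter, 5 of the 10 held them, against 25.2% of 32851 mouse promoters of the same length. Overlapping *Mag* promoters share the same match, so these are not all separate sites. *Mobp* held 6 matches, starting 243 to 120 bases before the start, whereas *Opalin* and *Cnp* held 1 match each. *Ugt8a* and *Aspa*, which fell, held 0 in this window. Any link of the letters to the changes was not tested. The core letters of the myelin regulatory factor MYRF (CTGGCAC, either strand) stood before *Cnp* and *Mag*, in 3 of the 10 promoters, and in 4.2% of all promoters. An E-box (CANNTG, read the same on both strands), the letters bound by OLIG and related factors, stood before 5 of the 8 genes. By promoter this was 6 of the 10, against 66.2% of all promoters. Letters of different motifs could overlap. Base composition differed widely, from 38.8% G and C before *Aspa* to 76.8% before *Ugt8a*. A match of letters is a description and was not tested as a binding site.

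*Opalin* encodes a transmembrane glycoprotein of oligodendrocytes and the paranodal loops of myelin. Its log2 values were 7.48, 7.59 and 7.38 after PBS, 6.43, 6.13 and 6.43 at 1 d after LPS, and 7.65, 7.38 and 7.40 at 4 d. All 3 arrays at 1 d lay far below the rest, and the PBS and 4 d arrays overlapped. On the linear scale the level went from 179 ± 12.8 (SD, n = 3 pools) after PBS down to 80.9 ± 9.51 and then back to 179 ± 18.8. The log2 change at 1 d was −1.15 (SE 0.12, adjusted p = 0.000463), the largest fall of the 9. At 4 d the change from PBS was −0.01 (95% confidence interval −0.27 to 0.26), and from 1 d to 4 d the level rose by 1.14 (adjusted p = 0.0012).

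*Ugt8a* encodes the enzyme that adds galactose to ceramide to make galactosylceramide, the typical lipid of myelin. Its log2 values were 9.29, 9.27 and 9.21 after PBS, 8.45, 8.15 and 8.42 at 1 d, and 9.28, 9.11 and 9.31 at 4 d. The 1 d arrays did not overlap with either of the other groups. The linear level of 612 ± 16.5 after PBS became 326 ± 36.0 (SD, n = 3 pools) by 1 d and was 602 ± 43.6 by 4 d. *Ugt8a* fell by 0.92 on the log2 scale at 1 d (SE 0.10, adjusted p = 0.000784) and rose by 0.89 from 1 d to 4 d (adjusted p = 0.00209), and its change from PBS at 4 d was −0.03 (95% confidence interval −0.25 to 0.20).

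*Aspa* encodes aspartoacylase, the oligodendrocyte enzyme that releases acetate from N-acetylaspartate for lipid synthesis. Its log2 values were 7.48, 7.49 and 7.34 after PBS, 6.70, 6.43 and 6.61 at 1 d, and 7.57, 7.08 and 7.31 at 4 d. The 4 d arrays were the most spread of the 3 groups, but each was above every 1 d array. The change at 1 d was −0.85 (SE 0.13, adjusted p = 0.00576), to 55.3% of the PBS level. From 1 d to 4 d the rise was 0.74 (adjusted p = 0.0196). Leaving out replicate 2 of LPS 1 d (0.67), replicate 3 of the same group (0.76) or replicate 3 of LPS 4 d (0.75) took that call away, with adjusted p of 0.0839, 0.0620 and 0.0667 in that order. Over all 18 settings the rise lay between 0.61 and 0.86, with adjusted p from 0.00103 to 0.285.

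*Cnp* encodes the phosphodiesterase that keeps cytoplasmic channels open in the myelin sheath. Its log2 values were 8.02, 7.85 and 7.89 after PBS, 7.42, 7.22 and 7.23 at 1 d, and 8.29, 7.93 and 7.99 at 4 d. *Cnp* showed the smallest of the 4 falls, −0.63 (SE 0.11, adjusted p = 0.0148), and stood close to the fold threshold at 1.55-fold. The call at 1 d was lost without PBS replicate 1 (−0.58, adjusted p = 0.0637), LPS 1 d replicate 2 (−0.59, adjusted p = 0.0680) or LPS 1 d replicate 3 (−0.60, adjusted p = 0.0624). Over all 18 settings it lay between −0.69 and −0.57 with adjusted p from 0.000511 to 0.0707. The rise from 1 d to 4 d was 0.78 (SE 0.11, adjusted p = 0.00724), and the change from PBS at 4 d was 0.15 (95% confidence interval −0.10 to 0.41).

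**Figure D1:**
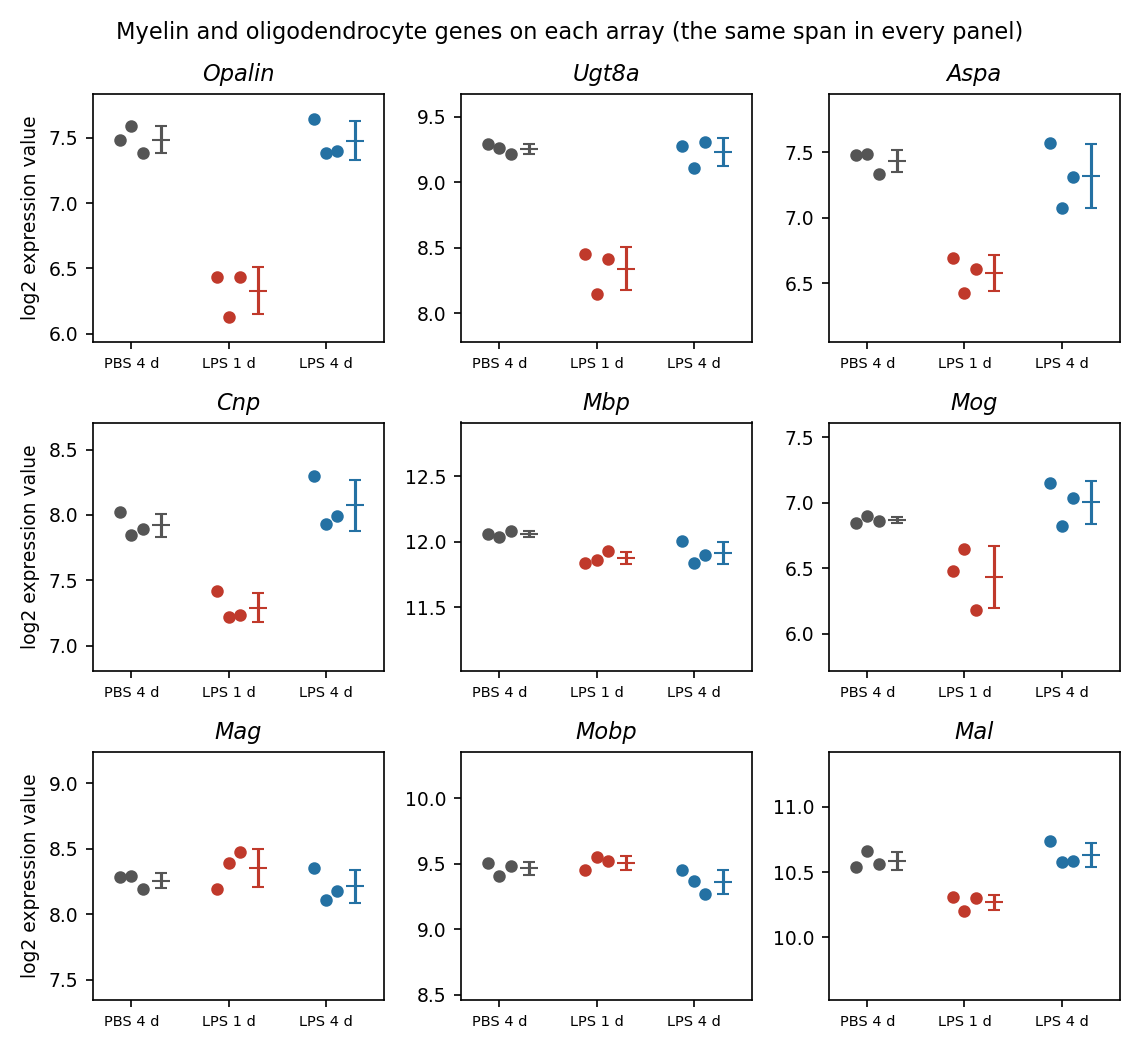
Log2 expression value (vertical axis) of each of the 9 genes on the 3 arrays of each group (points), with the mean and SD of the group (bar), the vertical axes all with the same span. *Opalin*, *Ugt8a*, *Aspa* and *Cnp* drop at 1 d and are back among the PBS values at 4 d, whereas *Mbp* (−0.18), *Mag* (0.10) and *Mobp* (0.04) have the smallest changes at 1 d.

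*Mal*, *Mog*, *Mbp*, *Mag* and *Mobp* did not pass the test at either time. *Mal*, a proteolipid that sorts cargo to the myelin membrane, had log2 values of 10.54, 10.66 and 10.56 after PBS, 10.31, 10.20 and 10.30 at 1 d, and 10.74, 10.57 and 10.58 at 4 d. The 1 d arrays lay below all others, but the change was −0.32 (95% confidence interval −0.50 to −0.13, adjusted p = 0.0774), and the change from 1 d to 4 d was 0.36 (adjusted p = 0.0608). *Mog*, the glycoprotein of the outermost lamella, had 6.84, 6.89 and 6.86 after PBS, 6.48, 6.64 and 6.18 at 1 d, and 7.15, 6.82 and 7.04 at 4 d. Its 1 d arrays were also below the others and were the most spread of any of the 9 genes at 1 d (SD 0.24). The change of *Mog* was −0.43 at 1 d (95% confidence interval −0.72 to −0.14, adjusted p = 0.125) and 0.57 from 1 d to 4 d (adjusted p = 0.0614).

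*Mbp*, the abundant protein that compacts the sheath, had log2 values of 12.06, 12.04 and 12.08 after PBS, 11.84, 11.86 and 11.93 at 1 d, and 12.01, 11.84 and 11.90 at 4 d. Every LPS array was below every PBS array, but the changes did not pass the test, −0.18 at 1 d (95% confidence interval −0.35 to −0.01, adjusted p = 0.283) and −0.14 at 4 d (−0.31 to 0.03, adjusted p = 0.390). It was the one gene of the 9 whose arrays at 4 d did not overlap with PBS. Of all probe sets, 11.7% also lay entirely below PBS at 4 d, so this does not set *Mbp* apart.

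*Mag*, the sialic acid binding adhesion protein that faces the axon, had log2 values of 8.28, 8.29 and 8.19 after PBS, 8.19, 8.39 and 8.48 at 1 d, and 8.36, 8.11 and 8.17 at 4 d. The groups overlapped throughout, and the change at 1 d was 0.10 (95% confidence interval −0.13 to 0.33, adjusted p = 0.708). *Mobp*, a small basic protein of the compact sheath, had 9.50, 9.41 and 9.48 after PBS, 9.45, 9.55 and 9.52 at 1 d, and 9.45, 9.37 and 9.27 at 4 d. Its change at 1 d was 0.04 (95% confidence interval −0.14 to 0.22, adjusted p = 0.855), an interval that does not reach the fall of *Opalin*. At 4 d the changes of *Mag* and *Mobp* from PBS were −0.04 and −0.10.

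Counted together, 4 of the 9 genes were lower at 1 d and 5 were not called, and the median change was −0.43 against −0.03 over all 17097 genes. Arrays at 1 d lay entirely below PBS for 7 of the 9, namely all but *Mag* and *Mobp*, where 12.6% of all probe sets did so. At 4 d, 0 were called with limma (0 at an unadjusted p under 0.05 as well), with a median change of −0.03 against −0.02 over all genes, and 1 of the 9 did not overlap with PBS (11.7% of all probe sets lay below). From 1 d to 4 d, 4 rose and 6 had no overlap upward (8.41% of all probe sets). Across the 3 groups, the same 4 passed an F-test at an adjusted p under 0.05 (5.23% of all probe sets), and *Mal* and *Mog* came next at 0.0559 and 0.0665.

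**Figure D2:**
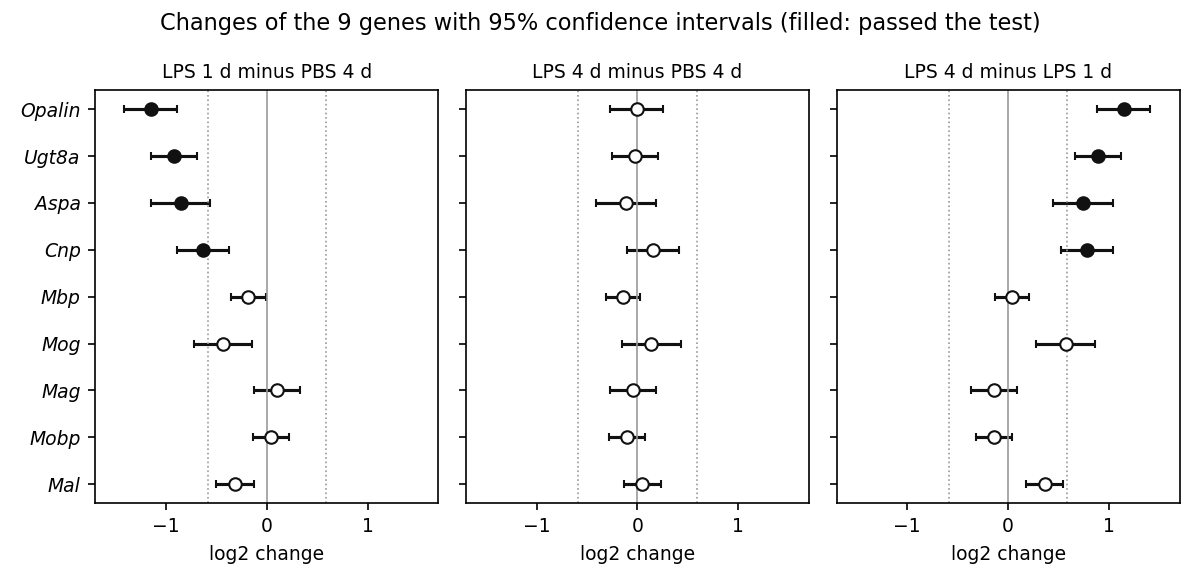
Log2 change (horizontal axis) of each gene in the 3 comparisons, with 95% confidence intervals, filled where the test was passed and with dotted lines at a fold of 1.5. At 1 d the intervals of *Opalin*, *Ugt8a*, *Aspa* and *Cnp* run from −1.42 (*Opalin*) to −0.37 (*Cnp*), those of *Mog*, *Mal* and *Mbp*, which did not pass the test, also lie below 0, and at 4 d all 9 cover 0.

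Averaged over the 9 genes, each array could be set against the PBS mean. The PBS arrays stood at 0.02, 0.02 and −0.04, the 1 d arrays at −0.45, −0.53 and −0.47, and the 4 d arrays at 0.13, −0.12 and −0.04. The 1 d arrays were close to each other. The 4 d arrays were further apart, since replicate 1 was above the mean of its group for 9 of the 9 genes and replicate 2 for 1 of the 9. Pooled RNA of 3 mice per array means that p-values measure the spread between pools.

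For 6 of the genes there were further probe sets, and these were read as a check on the ones above (8 probe sets in all). The other probe set of *Ugt8a* fell by 0.83 on the log2 scale at 1 d (SE 0.14, adjusted p = 0.0106) and that of *Cnp* by 0.59 (SE 0.09, adjusted p = 0.00624), and both rose from 1 d to 4 d, by 0.90 and 0.69. The other probe sets of *Mal* (−0.42, adjusted p = 0.0347) and of *Mbp* (−0.38, adjusted p = 0.0197) passed the adjusted p at 1 d but not the fold of 1.5. All 3 other probe sets of *Mobp* stayed between −0.11 and 0.10 at 1 d. At 4 d they were at −0.30, −0.09 and 0.26, and none passed the test. The other probe set of *Opalin* had a mean of 2.12, below the 3.49 of the highest nonspecific control, so it had no measurable signal to compare. *Aspa*, *Mog* and *Mag* had 1 probe set each.

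**Figure D3:**
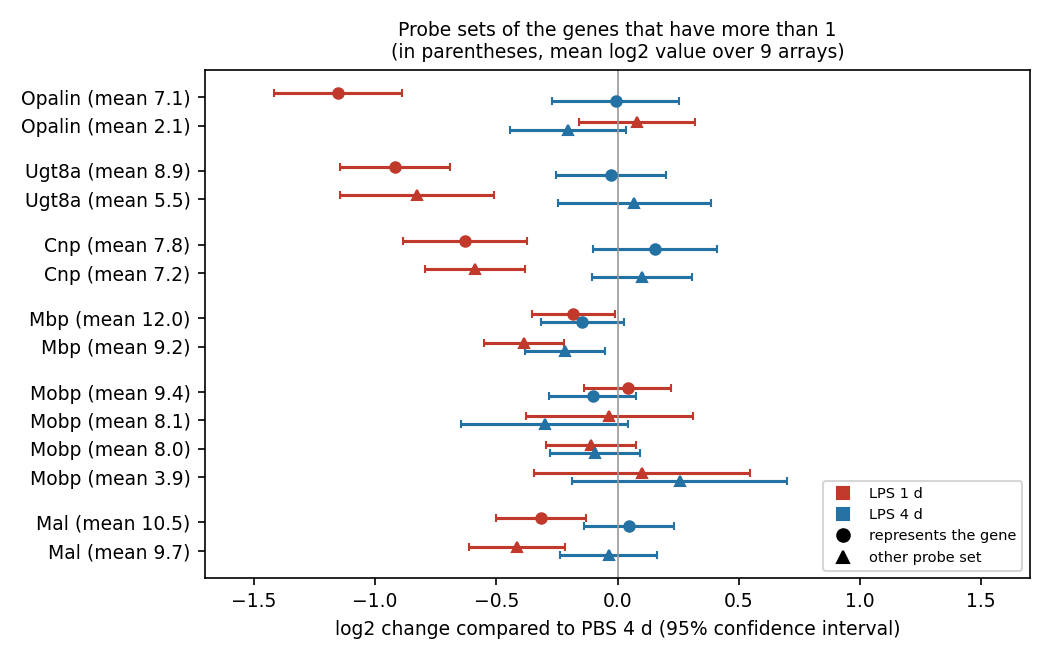
Log2 change compared to PBS (horizontal axis, with 95% confidence intervals) of every probe set of the genes that have more than 1, circles for the probe set that represents the gene and triangles for the others, red at 1 d and blue at 4 d. Probe sets of *Ugt8a*, *Cnp* and *Mal* move alike at 1 d, the dimmer *Mbp* probe set lies at −0.38 against −0.18, and the *Opalin* probe set at 2.1 lies in the background.

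How alike the genes moved was described by the correlation of each with the mean of the other 8 over the 9 arrays, which share the 3 groups. Pearson's r was 0.98 for *Aspa*, 0.97 for *Opalin*, 0.96 for *Mal*, 0.96 for *Ugt8a* and 0.95 for *Cnp*. It was 0.82 for *Mog* and 0.64 for *Mbp*, and it was negative for *Mag* (−0.39) and *Mobp* (−0.48). *Mal* therefore followed the genes that fell in shape, though with a smaller change.

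Among 11744 genes above background, the 10 whose values were most like the mean of the 9 over the arrays were *Dip2a*, *Nat8f1*, *Slc7a10*, *Pllp*, *1700047M11Rik*, *Slc40a1*, *Jam2*, *Prr18*, *Bcar3* and *Nkain1*, with r from 0.99 to 0.96. After the group means were removed, r was 0.96 for *Dip2a*, 0.93 for *Slc40a1* and 0.90 for *Prr18*, and 0.63 to 0.88 for the others. *Slc40a1*, the iron exporter ferroportin, had log2 values of 6.33, 6.35 and 6.22 after PBS, 5.03, 5.06 and 5.01 at 1 d, and 7.01, 6.29 and 6.61 at 4 d. It was lowest on all 3 arrays at 1 d (change −1.26). *Slc7a10*, an amino acid transporter best known in astrocytes, changed by −0.66 at 1 d. The 10 genes were picked for likeness to the 9 on these same arrays. Low values at 1 d therefore followed from the choice and are no separate result. Without 1 array, a check chosen after seeing the data, 5 to 8 of the 10 stayed among the 10.

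Other genes of mature oligodendrocytes and myelin moved in both directions. Of 16 analysed, 1 fell and 2 rose at 1 d, 1 rose at 4 d, and from 1 d to 4 d 3 rose and 4 fell, with median changes of −0.28, 0.03 and 0.18 against −0.03, −0.02 and 0.00 over all genes. The shares over all probe sets were 0.44% lower and 2.36% higher at 1 d and 2.58% higher at 4 d. From 1 d to 4 d they were 1.11% higher and 0.85% lower. *Pllp*, which encodes plasmolipin, a membrane proteolipid of myelin, had log2 values of 7.91, 8.06 and 7.97 after PBS, 6.99, 6.85 and 7.10 at 1 d, and 8.29, 7.98 and 8.11 at 4 d. It was low at 1 d alone, with a fall to 49.95% of the PBS level (SE 0.10 on the log2 scale, adjusted p = 0.000568), and it rose by 1.15 on the log2 scale from 1 d to 4 d (adjusted p = 0.000749). *Ppp1r14a*, an inhibitor of myosin phosphatase, did not pass at 1 d (−0.38, adjusted p = 0.113) and rose by 0.68 from 1 d to 4 d (adjusted p = 0.0124). Leaving out replicate 3 of LPS 1 d (0.65), or replicate 1 (0.65) or 3 (0.62) of LPS 4 d, took this call away. *Evi2a*, a membrane protein gene inside an intron of *Nf1*, was chosen after its values were seen and rose by 0.62 from 1 d to 4 d (adjusted p = 0.00632), having passed the adjusted p but not the fold at 1 d (−0.57, adjusted p = 0.00617).

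In the other direction, *Apod*, which encodes the lipid carrier apolipoprotein D, had log2 values of 9.78, 9.87 and 9.94 after PBS, 11.58, 11.84 and 11.86 at 1 d, and 10.95, 10.73 and 10.90 at 4 d. No groups overlapped, and *Apod* rose by 1.90 at 1 d (SE 0.10, adjusted p = 1.50e-05) and by 0.99 at 4 d (adjusted p = 0.000661). *Trf*, the iron carrier transferrin, which oligodendrocytes and the choroid plexus make, rose by 1.07 at 1 d (SE 0.16, adjusted p = 0.00588) and stood 0.56 above PBS at 4 d (adjusted p = 0.12). *Hapln2*, a link protein of the matrix at nodes of Ranvier, was 0.40 above PBS at 1 d (adjusted p = 0.166) and fell by 0.71 from 1 d to 4 d (adjusted p = 0.0253). Leaving out replicate 2 or 3 of LPS 1 d, or any array of LPS 4 d, took this call away, with values between −0.75 and −0.58. *Anln*, the cytoskeletal scaffold anillin, and *Adamts4*, a matrix protease, also named after their values were seen, fell by 0.65 and 0.64 from 1 d to 4 d (adjusted p = 0.00762 and 0.0276) and had not passed at 1 d (0.36 and 0.26).

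Enzymes of myelin lipid synthesis other than *Ugt8a* did not move by the test, 0 of 10 in any comparison by limma. At an unadjusted p under 0.05 there were 5 at 1 d, 2 at 4 d and 4 from 1 d to 4 d, and the share of all probe sets at that cut is not given here. *Fa2h*, which makes the hydroxylated fatty acids of galactosylceramide, had a log2 difference of −0.46 at 1 d (adjusted p = 0.119), and *Gal3st1*, which makes sulfatide from the product of *Ugt8a*, one of −0.36 (adjusted p = 0.166). Of the 10 changes at 1 d, 5 were positive. *Elovl1*, a fatty acid elongase, had values of 0.48 at 1 d (adjusted p = 0.0153) and 0.43 at 4 d (adjusted p = 0.0284), which were past the adjusted p but not the fold. Genes of the contact between axon and myelin, such as *Cntn1* and *Nfasc*, also gave 0 of 10 in each comparison (0, 4 and 3 at an unadjusted p under 0.05). Their changes at 1 d ranged from −0.32 to 0.09.

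Of 10 oligodendrocyte transcription factors, 0 were called at 1 d (3 at an unadjusted p under 0.05). The changes at 1 d were negative for 9 of the 10, with a median of −0.14 against −0.03 over all genes. *Nkx2-2* had the largest, −0.59 (adjusted p = 0.29), and changed by 0.74 from 1 d to 4 d (adjusted p = 0.22). At 1 d the log2 difference was −0.40 for *Olig1* (adjusted p = 0.0831), −0.07 for *Olig2*, −0.20 for *Sox10* (adjusted p = 0.445) and −0.43 for *Sox8*, which passed the adjusted p (0.0373) but not the fold. At 4 d *Tcf7l2*, a Wnt pathway factor of newly formed oligodendrocytes that thalamic neurons also express, fell, with a change of −1.05 from PBS (SE 0.23, adjusted p = 0.0369). Its 4 d arrays read 5.72, 5.83 and 6.74 against 7.07, 7.17 and 7.21 after PBS, so replicate 3 stood near the 1 d arrays (6.76, 6.74 and 6.84). The call held only without LPS 4 d replicate 3 (−1.37), and leaving out any of the other 8 arrays took it away, with values from −1.09 to −0.86. Of the hypothalamus and thalamus markers, 2 of 9 were also lower at 4 d, against 0.344% of all probe sets. All 9 changes were negative (median −0.87), and the part of these markers in the change of *Tcf7l2* was not tested.

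Of 9 genes of precursors and committed precursors, 2 were at background in every group, and *Gpr17* alone was called. The shares higher over all probe sets were 2.58% at 4 d and 1.11% from 1 d to 4 d. *Gpr17* encodes a receptor that marks precursors committed to become oligodendrocytes. Its log2 values were 6.78, 6.73 and 6.63 after PBS, 6.18, 5.63 and 6.14 at 1 d, and 7.96, 7.21 and 7.57 at 4 d, so the 3 groups did not overlap at all. The change was −0.73 at 1 d (SE 0.20, adjusted p = 0.0975), 0.86 at 4 d (adjusted p = 0.0492) and 1.59 from 1 d to 4 d (adjusted p = 0.00348). The call at 4 d was lost on leaving out any array other than LPS 1 d replicate 2 or LPS 4 d replicate 2 (values 0.67 to 0.90), and with arrays centred on their median (0.85). The rise between the times held without any single array, between 1.40 and 1.78. *Enpp6*, another gene of newly forming oligodendrocytes, took −0.39, 0.25 and 0.64 in these comparisons and did not pass (adjusted p = 0.246, 0.458 and 0.0724), and *Ptprz1* and *Lhfpl3* of earlier precursors changed by 0.01 and 0.02 at 1 d.

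**Figure D4:**
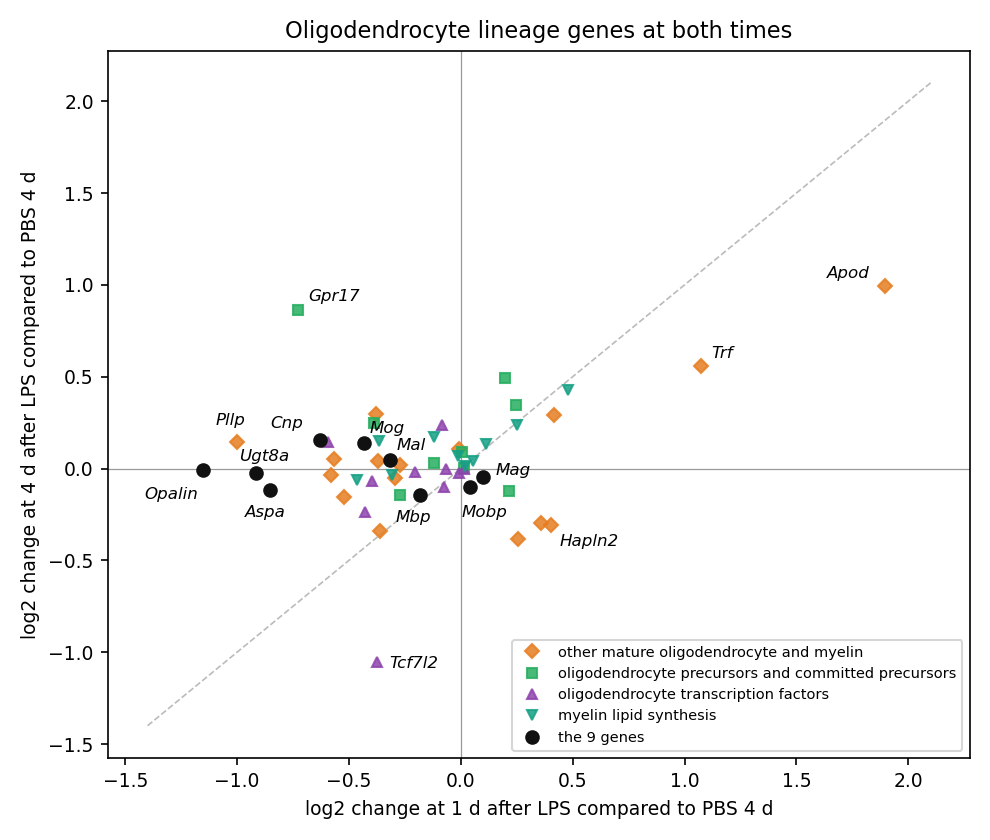
Log2 change at 1 d (horizontal axis) against that at 4 d (vertical axis), each compared to the same PBS arrays, for the 9 genes (black circles) and 4 lists of the oligodendrocyte lineage, with a dashed line where both are equal. *Opalin*, *Ugt8a*, *Aspa* and *Pllp* lie far left near 0 on the vertical axis, *Gpr17* is at −0.73 and 0.86, and *Apod* is at 1.90 and 0.99.

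Signals that promote or hold back oligodendrocytes gave few calls, with 1 of 13 higher and 1 lower at 1 d and 0 called at 4 d by limma (1 at an unadjusted p under 0.05). The shares over all probe sets at 1 d were 2.36% higher and 0.44% lower. *Lif*, a cytokine that promotes oligodendrocyte survival, was higher at 1 d than after PBS (fitted difference 1.04, adjusted p = 0.00351) and lower at 4 d than at 1 d (−0.88, adjusted p = 0.0142). Its group means were 3.04 after PBS, 4.08 at 1 d and 3.19 at 4 d, so *Lif* was at background (3.49 or less) in both other groups and the fitted differences give no measured size. The difference between the times was no longer called without LPS 4 d replicate 3 (−0.83). For the mean of its probe sets, *Lif* had 0.26 at 1 d and −0.31 between the times, and neither was called. *Id4*, an inhibitor of oligodendrocyte differentiation that astrocytes also express, changed by −0.59 at 1 d (adjusted p = 0.0378), and that call was lost in 9 of the other settings, with values from −0.63 to −0.48.

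Genes reported in reactive oligodendrocytes were higher, 6 of 6 at 1 d and 5 of 6 at 4 d, against 2.36% and 2.58% of all probe sets. The 6 had median changes of 2.23 and 2.17 against −0.03 and −0.02 over all genes. Astrocytes, microglia, endothelial cells and leukocytes express most of them too. *Serpina3n*, a protease inhibitor, rose by 4.95 at 1 d (adjusted p = 5.12e-06) and 3.74 at 4 d, and fell by 1.21 between the times (adjusted p = 0.0176), a fall whose call depended on replicates 2 (−1.10 without it) and 3 (−1.23) of LPS 1 d and on replicate 3 of LPS 4 d (−1.20). *C4b*, of the complement cascade, rose by 2.16 and 2.67 at 1 d and 4 d. The other 2 genes of the list, named after their values were seen, were *Klk6*, a protease of oligodendrocytes, with rises of 1.77 and 1.44, and *Il33*, an alarmin of oligodendrocytes and astrocytes, with a rise of 0.68 at 1 d and a change of 0.07 at 4 d (adjusted p = 0.84). The antigen presentation genes *H2-D1* and *H2-K1* rose by 2.32 and 2.30 at 1 d and by 2.23 and 2.11 at 4 d, although probes for these similar genes may share targets, and the mean of the probe sets of *H2-D1* rose by 0.80 and 0.74. *Serpina3n*, *C4b*, *Klk6*, *H2-D1* and *H2-K1* were above PBS on every array at 4 d. The share of all probe sets that did so is not given here, so this does not set these genes apart.

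Other cell types moved with the groups, and their part in the changes above was not tested. For the counts below, the shares over all probe sets were 2.36% higher and 0.44% lower at 1 d. At 4 d these shares were 2.58% and 0.344%. Neutrophil markers were higher for 6 of 6 at 1 d and 1 of 6 at 4 d (*Csf3r*), and their summed linear level was 70.0 to 147 after PBS, 1613 to 4419 at 1 d and 259 to 483 at 4 d, with *Cxcr2* at background except at 1 d. LPS 1 d replicate 2 had the highest neutrophil sum and, among the 1 d arrays, the lowest values of *Opalin*, *Ugt8a*, *Aspa*, *Cnp* and *Mal*, the highest of *Mog* and *Mobp*, and the middle ones of *Mbp* and *Mag*. Monocyte and macrophage markers were higher for 6 of 7 at both times (sums of 164 to 191, 1131 to 1151 and 1770 to 2541). Microglia markers, with sums of 902 to 925, 834 to 1156 and 2670 to 2949, were 1 higher (*C1qa*) and 1 lower (*P2ry12*) of 6 at 1 d and 5 higher at 4 d. Astrocyte markers were 2 higher of 8 at both times (*Gfap* and *Aqp4*), with sums of 5599 to 5948, 6280 to 6389 and 6491 to 7077, and endothelial markers 3 higher of 8 at both (*Cdh5* and *Tie1* at both, *Ly6c1* at 1 d and *Cldn5* at 4 d), with 859 to 917, 1176 to 1286 and 1201 to 1341.

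Neuron markers gave 0 of 10 called by limma at either time (1 and 2 at an unadjusted p under 0.05), with sums of 16500 to 17000, 16330 to 16560 and 14820 to 15730. With every array centred on them, *Opalin*, *Ugt8a* and *Aspa* were still called at 1 d, and *Cnp* (−0.57, adjusted p = 0.0391) dropped below the fold. Striatal projection neuron markers gave 0 of 6 at both times (1 and 0 at an unadjusted p under 0.05), with sums of 2715 to 3656, 2520 to 3255 and 2547 to 3483. Hypothalamus and thalamus markers gave 0 of 9 at 1 d by limma (0 at an unadjusted p under 0.05), with sums of 1366 to 1876 against 1181 to 1855 after PBS, and 2 lower of 9 at 4 d (*Pmch* and *Calb2*), with 558 to 1024. At 4 d the changes of all 9 from PBS were negative (median −0.87), 5 of them at an unadjusted p under 0.05. Choroid plexus markers were 1 lower of 8 at both times (*Sostdc1*, then *Otx2*, with sums of 3290 to 4579, 3613 to 5039 and 1595 to 3108). At 1 d 4 of their 8 changes were negative. At 4 d all 8 were (median −0.71), 6 of them at an unadjusted p under 0.05. The part of the tissue sampled at 4 d in the values of the 9 oligodendrocyte genes was not tested. Schwann cell markers gave 0 of 4 at both times (0 at an unadjusted p under 0.05), with *Pmp2* at background in every group. Of the defining markers of brain tissue, the 9 oligodendrocyte genes and the 10 neuron markers were all above background in every group.

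RNA integrity was read from the 3′ minus 5′ control probe sets. The difference was 0.26 to 0.44 for *Gapdh* and 0.76 to 0.96 for actin over the 9 arrays, and the groups overlapped in both. Array medians ranged from 4.32 to 4.37 on the log2 scale.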

How the data were processed

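RNA from 9 pools was labelled with the Affymetrix IVT Express Kit and hybridised by the authors to HT MG-430 PM array plates, and the scans were summarised by RMA in Affymetrix Expression Console (of a version not given in the sources used here). As deposited, each value is a log2 signal of 1 probe set, already background corrected and normalised between arrays, and the scans were not used here, so these steps were not repeated. RMA brings the arrays to 1 distribution, which hides a shift shared by most genes.

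Of 45141 entries, 104 controls were left out and 45037 probe sets were tested with limma 3.58.1 in R 4.3.3, with 1 mean per group over all 9 arrays (6 residual and 3.02 prior degrees of freedom), as moderated tests with Benjamini-Hochberg adjustment over all probe sets. The authors' analysis of variance was replaced by this test. The script was first tested on simulated data. With 3 arrays a group, the smallest p that exact permutation allows is 0.1. Background was the highest mean of 23 nonspecific controls, 3.49. For linear levels, 2 was raised to each log2 value before the mean and SD.

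Gene symbols came from the platform annotation (28898 probe sets with 1 symbol, 28689 matched by Entrez identifier, 551 with several and 15588 with none). The genes and lists were chosen with earlier results of these data known, and list genes without such a probe set were not analysed here. Named genes are the 9, up to 4 called genes per list and comparison with the largest change, and the 10 most like the mean of the 9. *Nfasc*, *Cntn1*, *Enpp6*, *Fa2h*, *Gal3st1*, *Elovl1* and other list genes that did not pass were named after their values were seen. The groups and replicate numbers are those of the labels, and no other batch is given there. Alternatives covered moderation, scaling, filters, probe set choice, fold threshold, a replicate block and each array left out.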

Additional observations from a re-analysis of the deposited data

Results flagged for a closer look

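The change at 4 d differed from that at 1 d, by the test of LPS 4 d against LPS 1 d itself, for 4 of the 9 genes and 7 genes of the lists. On the log2 scale *Opalin* was higher at 4 d by 1.14 (adjusted p = 0.0012), *Ugt8a* by 0.89 (0.00209), *Cnp* by 0.78 (0.00724) and *Aspa* by 0.74 (0.0196). *Gpr17* was higher by 1.59 (0.00348), *Pllp* by 1.15 (0.000749) and *Ppp1r14a* by 0.68 (0.0124). The others were lower at 4 d than at 1 d, with changes of −1.21 for *Serpina3n* (0.0176), −0.90 for *Apod* (0.00229), −0.88 for *Lif* (0.0142), which was at background at 4 d and after PBS, and −0.71 for *Hapln2* (0.0253).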

How the results depend on the processing

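Of 459 alternative values for the 9 genes, 435 kept their call or, if uncalled, stayed within their standard error, 15 lost a call, 9 uncalled values moved by more than that error, and 0 called values reversed. For the list genes these were 602, 51 and 5 of 660, with 2 that gained a call. Among the 9 genes, only the 4 falls at 1 d and the 4 rises from 1 d to 4 d had a call to lose. Over both sets, 17 uncalled values changed sign. With unmoderated tests, 2 of the 9 were lower at 1 d and 0 rose between the times, and the lists gave 2 other mature genes, 0 transcription factors, 0 precursor genes, 0 signals and 4 reactive genes (in place of 8, 1, 1, 2 and 6). Of all 45037 probe sets, those tests called 34 lower and 439 higher at 1 d. Between the times they called 1 higher and 0 lower, so they could hardly call any gene there. With an intensity trend and robust moderation, 7 of the 9 differed across the groups, and 2 precursor genes were called. The mean of all probe sets also gave 7 of the 9 across the groups, and 1 signal. There *Opalin*, averaged with its background probe set, had −0.54 at 1 d and 0.43 between the times, under the fold threshold. A fold of 2 left 1 of the 9 lower at 1 d, 1 higher between the times, 3 other mature genes, 1 signal and 0 of the further probe sets, and no fold threshold gave 1 lipid gene, 2 transcription factors and 4 further probe sets. Probe sets above background only gave 2 precursor genes and 1 signal, 1 probe set per gene gave 2 precursor genes, and centring on neuron markers gave 1 signal. Leaving out 1 array, 3 to 4 of the 9 were lower at 1 d, 3 to 4 were higher between the times, 4 to 4 differed across the groups and 0 to 0 were lower at 4 d, and the lists ranged over 5 to 9 other mature genes, 0 to 1 lipid genes, 0 to 1 transcription factors, 1 to 3 precursor genes, 0 to 1 axon contact genes, 1 to 2 signals, 5 to 6 reactive genes and 2 to 2 further probe sets. Where a group lost an array, the rest were assumed to vary like the other groups.

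Same-numbered arrays correlated between −0.03 and 0.02 in their deviations from group means (9 pairs), and differently numbered ones between −0.03 and 0.04 (18 pairs). These correlations over all probe sets gave no sign that replicate numbers pair the arrays, but they cannot exclude it. With the replicate block, 1 signal was called instead of 2, 7 other mature genes instead of 8 and 5 reactive genes instead of 6, the calls for the 9 genes did not change, and 1006 probe sets were higher and 162 lower at 1 d (1064 and 198 without it). Arrays read no absolute amounts, and 3 pools a group limit the precision.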
